A study of Mus musculus with 4 samples.

Results

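Asl, the argininosuccinate lyase gene, and 9 other genes of arginine and polyamine metabolism (Ass1, Arg2, Odc1, Oat, Srm, Sms, Gatm, Slc7a1 and Nos1) were followed in primary mouse cortical culture after knockdown of the chromatin factor CTCF. They are 10 of the 37437 Ensembl genes measured. The set was drawn up because Asl was higher after knockdown, so the values of Asl are given as a description, with no test, and the other members were picked by pathway with earlier results of the same contrast known. Cultures received adeno-associated virus carrying a knockdown of Ctcf (shCTCF, n = 2 libraries) or a knockdown of lacZ, a bacterial gene that mouse cells lack (shLAC, n = 2 libraries). Total RNA was sequenced as paired reads, and 1 value per gene and library was deposited as TPM, each gene's share of all transcripts after correction for its length. The labels give no strain, age of the cultures, time after infection or promoter of the virus, and do not tell separate cultures from repeats of one, so every p-value rests on library spread that may be technical.

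Arginine is at the meeting point of several pathways. ASS1 joins citrulline and aspartate into argininosuccinate, and ASL splits that into arginine and fumarate; in liver these are steps of the urea cycle, and in other tissues they recycle citrulline back to arginine. Arginine is then used by nitric oxide synthases, by GATM for creatine, and by arginases, whose product ornithine feeds either glutamate and proline, through OAT, or the polyamines putrescine, spermidine and spermine, through ODC1, SRM and SMS. In the brain, neuronal nitric oxide synthase is best known from a subset of inhibitory neurons, and spermine is known as a pore blocker of some glutamate receptors and potassium channels.

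Ctcf itself was at 3.25 and 3.40 scaled TPM in the shCTCF libraries, against 8.11 and 8.80 scaled TPM in the shLAC libraries, so its mean in knockdown was 39.3% of that in control (log2 fold change -1.13, SE 0.0668, limma adjusted p = 0.00209). Scaled TPM are the deposited TPM divided by a median-ratio factor per library, and a log2 fold change is the shCTCF mean minus the shLAC mean of log2(scaled TPM + 1), which understates the change of low genes. The factors were 1.10 and 1.05 in shCTCF and 1.05 and 0.831 in shLAC. The low factor of shLAC replicate 2 goes with predicted Gm genes, which held 11.0% and 11.7% of TPM in the shCTCF libraries, against 9.21% in the first and 28.0% in the second shLAC library. Without scaling the median log2 fold change of the 11139 fitted coding genes was 0.17, and the changes below are relative to that shift. The fitted coding genes held 24.8% and 23.7% of TPM in the shCTCF libraries, against 23.8% and 19.2% in the shLAC libraries. Most TPM thus lay in genes outside the fit, not all of them predicted Gm genes. Depth is not kept by TPM and is unknown. Of the markers of cortical neurons, all 6 of excitatory and 7 of 8 of inhibitory neurons passed the expression filter, as did all 8 of astrocytes and 6 of 7 of the oligodendrocyte lineage, all 5 of proliferating cells and 1 of 5 of fibroblasts, whereas 0 of 6 microglial and 0 of 4 endothelial markers did, with Cldn5 listed at 0 in all 4 libraries. In these bulk samples, fewer cells of a type and less RNA per cell cannot be told apart.

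The expression filter (at least 1 TPM in at least 2 libraries) was passed by 9 of the 10 members; Arg2 did not pass. Among the 8 fitted members other than Asl, limma called 1 higher (Sms) and 1 lower (Gatm) in shCTCF at an adjusted p below 0.05, and 6 were not called. Over all 11139 coding genes fitted, 6.51% were called, 2.83% higher and 3.68% lower, and since the contrast had a part in choosing the members nothing is read from their count. The shCTCF and shLAC values did not overlap in 5 of the 9 fitted members. The 2 with shCTCF above were Sms and Asl, and Asl is there by the choice of the set. The 3 with shCTCF below were Ass1, Gatm and Slc7a1. Of all fitted genes, 54.8% had groups that did not overlap, 27.6% with shCTCF above and 27.2% with shCTCF below. Nothing is read from this count of members either. With 2 libraries against 2, an exact permutation test (2-sided) cannot give a p below 0.333.

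**Figure D1:**
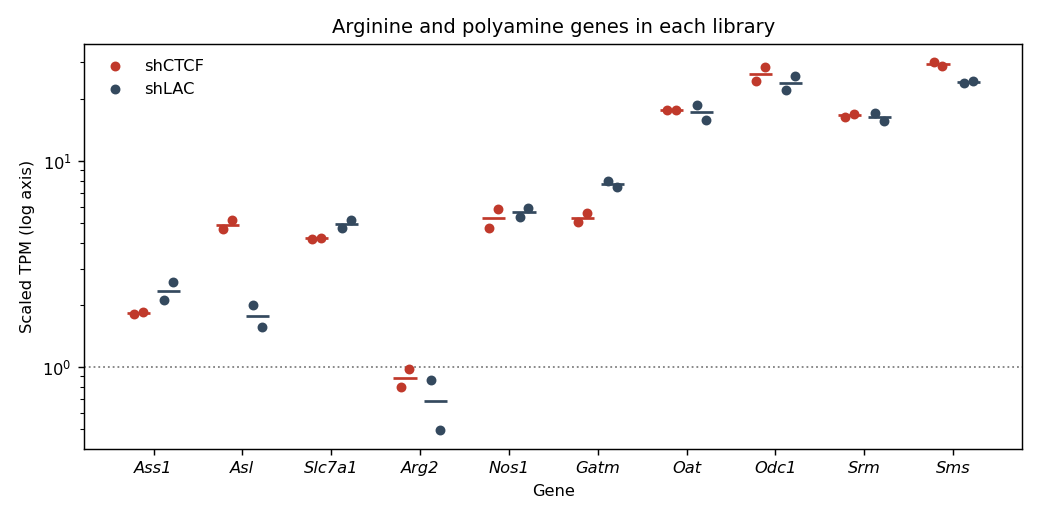
Scaled TPM on a log axis for the 10 genes in each library, with points for the 2 libraries of shCTCF (left of each pair) and of shLAC (right) and a bar at each group mean; the dotted line marks 1 scaled TPM. Asl stands at 4.65 and 5.14 in shCTCF against 1.99 and 1.56 in shLAC, while Odc1, Oat, Srm and Nos1 overlap between the groups.

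Sequence upstream of the members is shown for those that were called and for Ass1 as the enzyme before Asl. Slc7a1 is shown because a window of it held the exact letters AGGGGGC, explained below. The windows, from RefSeq on GRCm38.p6, run from 250 bases before to 50 after an annotated transcript start. The table matched 7 of the 10 members by symbol, with 9 windows in all; Asl, Arg2 and Srm are named only. Capitals mark, on either strand, the pentamer CCCTC after which the factor is named, the letters AGGGGGC of its core motif, and the E-box CACGTG. Sms has 2 annotated starts and both are given.
Gatm, chr2:122611228-122611527, minus strand: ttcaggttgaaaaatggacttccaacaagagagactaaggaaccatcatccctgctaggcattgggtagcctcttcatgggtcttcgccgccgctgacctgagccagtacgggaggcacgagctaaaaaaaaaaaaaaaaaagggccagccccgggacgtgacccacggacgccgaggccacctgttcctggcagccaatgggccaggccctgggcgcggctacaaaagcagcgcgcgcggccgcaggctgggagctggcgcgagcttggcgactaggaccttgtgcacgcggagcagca
Sms upstream start, chrX:157492238-157492537, minus strand: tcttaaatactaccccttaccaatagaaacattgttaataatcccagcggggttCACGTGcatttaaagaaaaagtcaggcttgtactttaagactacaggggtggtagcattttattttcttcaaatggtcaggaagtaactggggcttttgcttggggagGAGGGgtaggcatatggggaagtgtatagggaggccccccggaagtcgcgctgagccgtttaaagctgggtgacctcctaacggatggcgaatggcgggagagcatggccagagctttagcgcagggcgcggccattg
Sms downstream start, chrX:157491319-157491618, minus strand: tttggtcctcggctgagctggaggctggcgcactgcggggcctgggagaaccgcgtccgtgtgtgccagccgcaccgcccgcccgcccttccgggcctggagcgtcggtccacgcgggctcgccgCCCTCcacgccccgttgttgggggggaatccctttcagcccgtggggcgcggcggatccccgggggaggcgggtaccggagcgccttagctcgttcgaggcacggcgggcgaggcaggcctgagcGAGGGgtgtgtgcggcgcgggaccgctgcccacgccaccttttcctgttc
Ass1, chr2:31470020-31470319, plus strand: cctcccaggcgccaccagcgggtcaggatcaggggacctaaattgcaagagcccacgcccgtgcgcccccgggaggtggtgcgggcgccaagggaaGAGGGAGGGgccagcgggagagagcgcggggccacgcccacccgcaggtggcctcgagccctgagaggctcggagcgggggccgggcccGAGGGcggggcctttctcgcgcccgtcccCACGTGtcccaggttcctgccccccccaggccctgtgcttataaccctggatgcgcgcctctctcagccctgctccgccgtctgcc
Slc7a1, chr5:148399855-148400154, minus strand: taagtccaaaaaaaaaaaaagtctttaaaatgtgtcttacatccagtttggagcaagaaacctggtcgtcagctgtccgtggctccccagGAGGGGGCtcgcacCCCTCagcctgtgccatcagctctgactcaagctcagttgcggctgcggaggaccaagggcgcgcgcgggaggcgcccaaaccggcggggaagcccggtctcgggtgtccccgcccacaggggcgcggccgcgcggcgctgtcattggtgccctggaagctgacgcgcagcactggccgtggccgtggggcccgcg
The Gatm window held none of the 3 motifs. The upstream Sms window held 1 CCCTC and 1 CACGTG and had a GC content of 50.3%, and the downstream Sms window held 2 CCCTC and had a GC content of 74.3%. Ass1 had 3 CCCTC, of which a pair overlap by 1 base, and 1 CACGTG. Slc7a1 also has 2 annotated starts; the downstream window, not printed, held 2 CCCTC and neither of the other motifs. The core letters AGGGGGC were in 1 of the 9 windows, the upstream one of Slc7a1, where they begin at position -159 from the transcript start and overlap 1 of the 2 CCCTC of that window. The E-box is known as a site of MYC family factors. Among all 32851 windows of the table, CCCTC was in 66.0%, CACGTG in 7.15% and AGGGGGC in 10.6%. Only these exact letters were searched, so other spellings of the CTCF core were not looked for in any window. These matches describe letters and say nothing of binding.

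Of the pair of enzymes that remake arginine from citrulline, Asl was higher and Ass1 was not called. Asl (ENSMUSG00000025533, chromosome 5, 130011258 to 130029247, minus strand, GRCm38) was at 4.65 and 5.14 scaled TPM in the shCTCF libraries, against 1.99 and 1.56 scaled TPM in the shLAC libraries. Both knockdown libraries lay above both controls, and the shCTCF mean was 276% of the shLAC mean (310% in TPM as deposited). Its log2 fold change of 1.09 ranked 5 from the top among the 11139 fitted genes, and its mean level stood at the percentile 26.0 of them. With 1 library left out at a time the value lay from 0.99 to 1.20, and with a pseudocount of 0.25 in place of 1 it was 1.35. Ass1 (ENSMUSG00000076441, chromosome 2, 31470207 to 31520672, plus strand), which makes the substrate of ASL, was at 1.80 and 1.85 scaled TPM in shCTCF, against 2.11 and 2.59 scaled TPM in shLAC. The groups did not overlap, with shCTCF below, and the log2 fold change was -0.24 (SE 0.0881, 95% interval -0.45 to -0.03, limma adjusted p = 0.158). Without shLAC replicate 1, which was the lower control library for Ass1, the gene was called lower (-0.34, limma adjusted p = 0.0309), whereas without shLAC replicate 2 the value was -0.14 (limma adjusted p = 0.439) and as deposited -0.11 (limma adjusted p = 0.751).

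Within each library the ratio of Asl to Ass1 needs no scaling between libraries. It was 2.59 and 2.78 in shCTCF, against 0.941 and 0.605 in shLAC. Asl thus had the higher TPM of the pair in both knockdown libraries and the lower TPM in both controls. This ratio contains Asl and is a description.

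**Figure D2:**
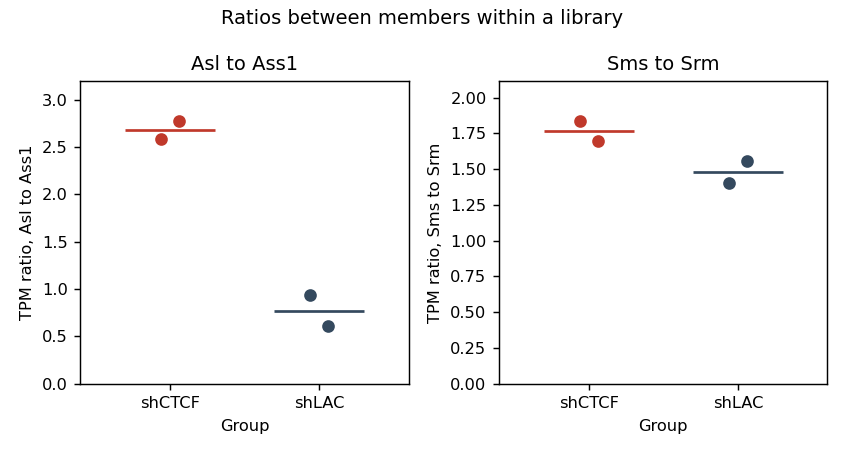
Ratio of deposited TPM of Asl to Ass1 (left) and of Sms to Srm (right), with a point per library, shCTCF left of shLAC, and a bar at each group mean. The Asl to Ass1 ratio averaged 2.68 in shCTCF and 0.773 in shLAC, and the Sms to Srm ratio averaged 1.77 in shCTCF and 1.48 in shLAC.

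None of the fitted genes around Asl was called. The 5 protein-coding genes on each side were examined, of which 8 of 10 passed the filter and 0 were called by limma. Zbed5 and Nupr1l did not pass. Over all fitted genes 6.51% were called, so 0 among 8 is near that share and nothing is read from the count. The nearest is Crcp, a subunit of RNA polymerase III, which is transcribed away from Asl and begins 42 bp from the GENCODE 5′ end of Asl, or 4908 bp from the RefSeq 5′ end at 130024381. Crcp was at 10.8 and 10.5 scaled TPM in shCTCF, against 9.96 and 11.7 scaled TPM in shLAC, with a log2 fold change of -0.02 (95% interval -0.21 to 0.17, limma adjusted p = 0.906; 0.16 in TPM as deposited). Gusb, the lysosomal beta-glucuronidase on the other side, was at 1.10 and 1.29 scaled TPM in shCTCF, against 1.32 and 1.36 scaled TPM in shLAC. Its log2 fold change was -0.09 (95% interval -0.28 to 0.10, limma adjusted p = 0.524; 0.02 as deposited). Kctd7 was at 3.72 and 3.81 scaled TPM in shCTCF, against 3.02 and 3.30 scaled TPM in shLAC, and was the highest of the 8 at 0.20 (95% interval 0.03 to 0.36, limma adjusted p = 0.145). The other 5, Chchd2, Vkorc1l1, Tpst1, Rabgef1 and Tmem248, lay from -0.12 to 0.05.

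**Figure D3:**
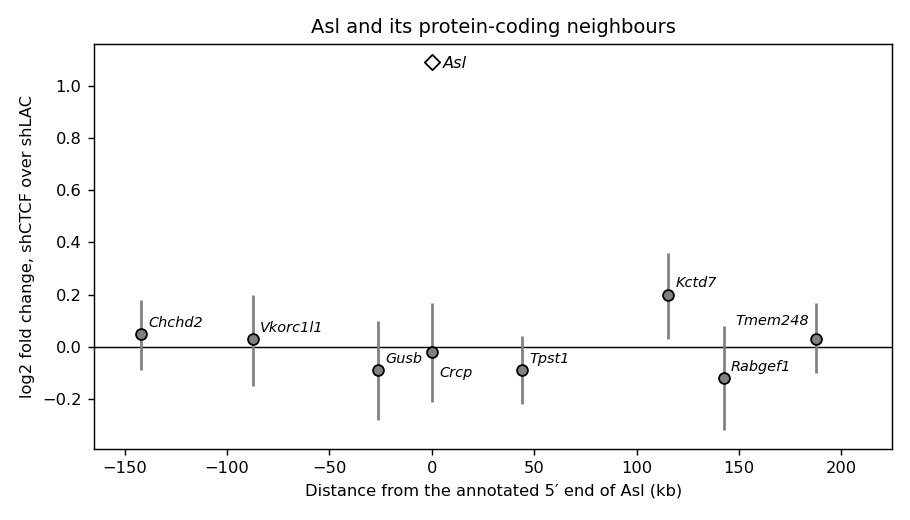
Log2 fold change (shCTCF over shLAC) against the distance in kb from the annotated 5′ end of Asl to the 5′ end of each fitted neighbour; lines are 95% limma intervals, and the diamond is Asl, drawn with no interval. Asl lies at 1.09 and the 8 neighbours from -0.12 to 0.20.

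The arginine carrier was not called, and both chains of the large neutral amino acid exchanger were lower. Slc7a1, the main cationic amino acid transporter that imports arginine, was at 4.17 and 4.24 scaled TPM in shCTCF, against 4.71 and 5.17 scaled TPM in shLAC. The groups did not overlap, and the log2 fold change was -0.19 (SE 0.0680, 95% interval -0.35 to -0.03, limma adjusted p = 0.153; -0.03 as deposited). Among 9 further genes of arginine transport and sensing, 7 were fitted, 2 fell, 0 rose and 5 were not called, with a median log2 fold change of -0.01. Over all fitted genes 2.83% were higher and 3.68% lower, the shares to set beside each list count below. Slc7a5, the light chain of the large neutral amino acid exchanger, was at 9.54 and 9.65 scaled TPM in shCTCF, against 12.5 scaled TPM in each shLAC library, and fell by 0.35 on the log2 scale (SE 0.0519, limma adjusted p = 0.0147). Slc3a2, the heavy chain that carries this and other light chains to the membrane, was at 19.1 and 18.8 scaled TPM in shCTCF, against 22.2 and 24.0 scaled TPM in shLAC, and fell by 0.27 (SE 0.0555, limma adjusted p = 0.0397). The calls of both were lost without either shCTCF library, with limma adjusted p from 0.0595 to 0.0703 for Slc7a5 and from 0.107 to 0.164 for Slc3a2. The call of Slc3a2 was also lost without shLAC replicate 2 (limma adjusted p = 0.0648). In TPM as deposited neither was called (limma adjusted p = 0.724 and 0.852).

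Of the enzymes that consume arginine, Gatm fell and Nos1 was not called. Gatm (ENSMUSG00000027199, chromosome 2, 122594467 to 122611303, minus strand), which transfers the amidino group of arginine to glycine in the first step of creatine synthesis, was at 5.03 and 5.56 scaled TPM in shCTCF, against 8.01 and 7.46 scaled TPM in shLAC. Both knockdown values lay below both controls, and the shCTCF mean was 68.4% of the shLAC mean (77.7% as deposited). Its log2 fold change was -0.47 (SE 0.0706, 95% interval -0.64 to -0.31, limma adjusted p = 0.0147). Gatm was no longer called without shCTCF replicate 1 (-0.41, limma adjusted p = 0.0521), in TPM as deposited (-0.30, limma adjusted p = 0.644), with genes of every type that passed the filter fitted together (12816 genes, limma adjusted p = 0.0759) and with no expression filter on coding genes (limma adjusted p = 0.0551). Of 8 astrocyte markers, 2 fell and 0 rose, beside 3.68% lower over all fitted genes. The 2 were Aqp4 (-1.07, limma adjusted p = 0.012) and Slc1a3 (-0.52, limma adjusted p = 0.017). The log2 fold changes of the 8 markers lay from -1.07 to -0.12, with a median of -0.24. Their summed level was 107 and 85.4 scaled TPM in shCTCF, against 133 and 112 scaled TPM in shLAC, with none of the 8 at 0 in all libraries. Of 7 oligodendrocyte lineage markers, 6 were fitted and 0 were called, with a median log2 fold change of 0.04. Their summed level was 78.4 and 71.4 scaled TPM in shCTCF, against 76.9 and 64.7 scaled TPM in shLAC. Of 5 fibroblast markers 1 passed the filter, Dcn, the proteoglycan decorin. It was at 1.92 and 1.69 scaled TPM in shCTCF, against 3.03 and 2.80 scaled TPM in shLAC, and fell (-0.48, limma adjusted p = 0.0182). The 5 summed to 2.23 and 1.90 scaled TPM in shCTCF, against 3.28 and 3.15 scaled TPM in shLAC, but this sum is mostly Dcn. The other 4, Col1a1, Col1a2, Lum and Pdgfrb, were at most at 0.156 scaled TPM in any library. The part of any of these cell types in the difference of Gatm was not tested.

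The other genes of the creatine branch were not called. Of Gamt, Slc6a8, Ckb and Ckmt1, 0 were called in either direction by limma, and their log2 fold changes lay from -0.20 to 0.19, with a median of 0.04. Ckb, the brain creatine kinase, was at 253 and 251 scaled TPM in shCTCF, against 270 and 234 scaled TPM in shLAC. Ckmt1, the mitochondrial creatine kinase, was at 45.4 scaled TPM in each shCTCF library, against 43.2 and 43.3 scaled TPM in shLAC, a log2 fold change of 0.07 (limma adjusted p = 0.392).

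Nos1, the neuronal nitric oxide synthase, was at 4.71 and 5.82 scaled TPM in shCTCF, against 5.32 and 5.91 scaled TPM in shLAC. The groups overlapped, and its log2 fold change was -0.08 (SE 0.0976, 95% interval -0.31 to 0.15, limma adjusted p = 0.651), while in TPM as deposited the sign turned (0.09). Inhibitory neuron markers summed to 259 scaled TPM in each shCTCF library, against 261 and 249 scaled TPM in shLAC. Of 7 fitted, 1 was called higher (Slc32a1, 0.36, limma adjusted p = 0.0417) and 1 lower (Calb2, -0.23, limma adjusted p = 0.0457). Over all fitted genes 2.83% were higher and 3.68% lower. The calls of Slc32a1 and Calb2 were not followed under the alternatives. Of 12 further genes of the nitric oxide branch, 9 were fitted and 0 were called, with log2 fold changes from -0.13 to 0.25 and a median of -0.05. Gucy1b1, a subunit of the soluble guanylate cyclase that senses nitric oxide, was at 53.3 and 50.6 scaled TPM in shCTCF, against 51.2 and 49.6 scaled TPM in shLAC. Ddah1, which breaks down the endogenous inhibitor asymmetric dimethylarginine, was at 26.2 and 22.7 scaled TPM in shCTCF, against 27.9 and 25.6 scaled TPM in shLAC; its log2 fold change was -0.13 and turned to 0.06 as deposited. The other nitric oxide synthases, Nos2 and Nos3, stayed under 0.2 scaled TPM in all 4 libraries and were not fitted.

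Arg2, the mitochondrial arginase, was at 0.803 and 0.973 scaled TPM in shCTCF, against 0.869 and 0.493 scaled TPM in shLAC. The groups overlapped, and no test was made since the gene did not pass the filter. Its annotated 3′ end overlaps Vti1b on the other strand, and whether strand was used in counting is not given in the sources used here. Of 13 genes listed for the urea cycle and its aspartate and fumarate arm, 8 were fitted and 5 were not. These 5, chosen for mention after their values were seen, were Cps1, Otc, Nags, Arg1 and Slc25a13, each below 0.3 scaled TPM in every library; Cps1 and Otc encode the first steps of the liver cycle. Among the 8 fitted genes 1 fell and 0 rose, beside 3.68% lower and 2.83% higher over all fitted genes, with a median log2 fold change of -0.01. Got2, the mitochondrial aspartate aminotransferase, was at 50.4 and 50.1 scaled TPM in shCTCF, against 57.2 and 60.6 scaled TPM in shLAC, and fell by 0.22 (SE 0.0493, limma adjusted p = 0.0468). Leaving out shCTCF replicate 1, shCTCF replicate 2 or shLAC replicate 2 ended that call (limma adjusted p = 0.146, 0.200 and 0.0834), as did the values as deposited (-0.03, limma adjusted p = 0.952).

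Neither outlet of ornithine was called. Oat, the mitochondrial ornithine aminotransferase, was at 17.6 scaled TPM in each shCTCF library, against 18.7 and 15.8 scaled TPM in shLAC, a log2 fold change of 0.03 (SE 0.0789, 95% interval -0.15 to 0.22, limma adjusted p = 0.832). Odc1, the ornithine decarboxylase that commits ornithine to polyamines, was at 24.3 and 28.4 scaled TPM in shCTCF, against 22.0 and 25.9 scaled TPM in shLAC. The groups overlapped, and the log2 fold change was 0.14 (SE 0.0972, 95% interval -0.10 to 0.37, limma adjusted p = 0.441). Of 8 further genes that link ornithine with proline and glutamate, 6 were fitted and 0 were called, from -0.24 to 0.30. Glul, the glutamine synthetase of astrocytes, was at 60.5 and 50.7 scaled TPM in shCTCF, against 69.8 and 61.3 scaled TPM in shLAC (-0.24, limma adjusted p = 0.190), and it was called lower without shLAC replicate 2 (-0.33, limma adjusted p = 0.0137). The value was -0.11 without shCTCF replicate 2 (limma adjusted p = 0.601), -0.14 without shLAC replicate 1 (limma adjusted p = 0.289) and -0.04 as deposited.

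Of the synthases that extend putrescine, Sms rose and Srm was not called. Sms (ENSMUSG00000071708, chromosome X, 157443855 to 157492287, minus strand), which makes spermine from spermidine, was at 30.0 and 28.8 scaled TPM in shCTCF, against 23.9 and 24.4 scaled TPM in shLAC. Both knockdown values lay above both controls, and the shCTCF mean was 122% of the shLAC mean (139% as deposited). Its log2 fold change was 0.27 (SE 0.0492, 95% interval 0.16 to 0.39, limma adjusted p = 0.0265). Sms was no longer called without shCTCF replicate 1 (0.25, limma adjusted p = 0.112) or shCTCF replicate 2 (0.30, limma adjusted p = 0.0855), in TPM as deposited (0.47, limma adjusted p = 0.474), with genes of every type that passed the filter (limma adjusted p = 0.0907) and with no filter (limma adjusted p = 0.0555). Excitatory neuron markers summed to 233 and 223 scaled TPM in shCTCF, against 189 and 198 scaled TPM in shLAC, with 0 of 6 called by limma and none at 0; their part in the difference of Sms was not tested. The reads of Sms may be shared with its pseudogene Sms-ps, so its level is uncertain to that extent.

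Srm, which makes spermidine from putrescine, was at 16.3 and 16.9 scaled TPM in shCTCF, against 17.1 and 15.6 scaled TPM in shLAC. Its log2 fold change was 0.02 (SE 0.0606, 95% interval -0.13 to 0.16, limma adjusted p = 0.891), and the groups overlapped. The ratio of Sms to Srm within a library was 1.84 and 1.70 in shCTCF, against 1.40 and 1.56 in shLAC, so both knockdown libraries had the higher ratio. The difference between the changes of Sms and Srm was not tested in the model.

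**Figure D4:**
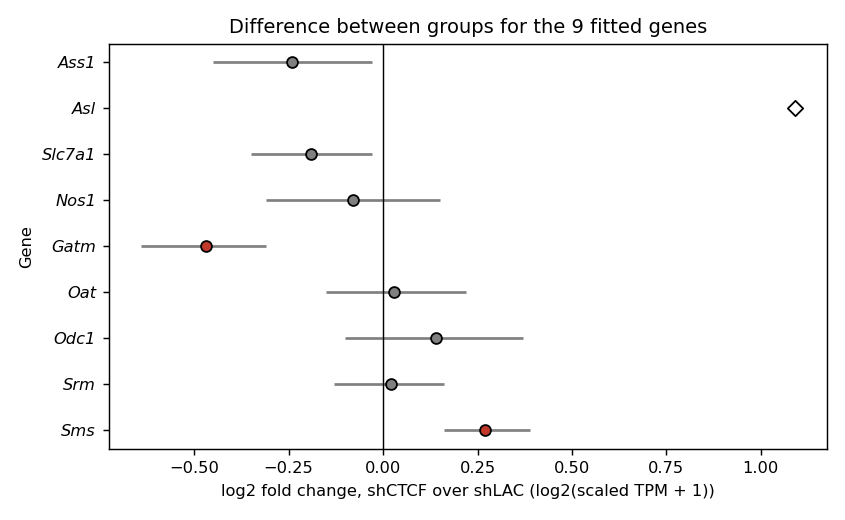
Log2 fold change (shCTCF over shLAC, on log2(scaled TPM + 1)) of the 9 fitted genes, with 95% limma intervals; red points passed an adjusted p below 0.05, grey points did not, and the white diamond is Asl, shown without an interval. Gatm lies at -0.47 and Sms at 0.27, and the other 6 tested genes lie from -0.24 to 0.14.

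Of 16 further polyamine genes, 13 were fitted, 1 rose, 0 fell and 12 were not called, with a median log2 fold change of 0.04. Paox, the peroxisomal oxidase that turns acetylated polyamines back towards putrescine, was at 1.96 and 1.88 scaled TPM in shCTCF, against 1.24 and 1.07 scaled TPM in shLAC. It rose by 0.44 (SE 0.0778, limma adjusted p = 0.0253), a call lost without either shCTCF library (limma adjusted p = 0.0987 and 0.0962). Of the 4 genes around hypusine, the spermidine-derived residue of the translation factor eIF5A, 1 fell and 3 were not called. Eif5a2, the less abundant eIF5A isoform gene here, was at 3.83 and 3.86 scaled TPM in shCTCF, against 4.78 and 5.16 scaled TPM in shLAC. It fell by 0.30 (SE 0.0660, limma adjusted p = 0.0459). That call was lost without shCTCF replicate 1, shCTCF replicate 2 or shLAC replicate 2 (limma adjusted p = 0.148, 0.178 and 0.0930) and as deposited (-0.14, limma adjusted p = 0.735). With genes of every type that passed the filter, none of the 5 pathway genes called kept its call (limma adjusted p from 0.0604 for Slc7a5 to 0.117 for Got2). With no filter Slc7a5 kept its call (limma adjusted p = 0.0430), and the other 4 did not (Paox 0.0734, Slc3a2 0.0794, Got2 0.0933 and Eif5a2 0.112, each a limma adjusted p). Among genes with a mean of at least 5 scaled TPM, Got2 was not called (limma adjusted p = 0.0504). Over all 66 pathway genes outside the members, 51 were fitted, 1 rose and 4 fell, with a median log2 fold change of 0.00, beside 2.83% higher and 3.68% lower over all fitted genes.

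**Figure D5:**
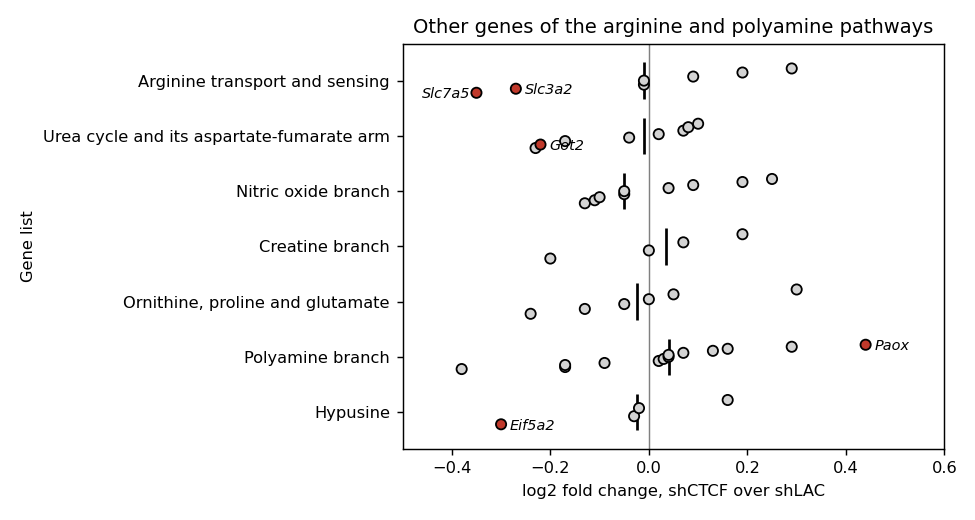
Log2 fold change (shCTCF over shLAC) of the fitted genes in 7 lists of the arginine and polyamine pathways, with a point per gene, a bar at each list median, and the called genes in red with their names. The 5 called genes lie from -0.35 (Slc7a5) to 0.44 (Paox), and the list medians lie from -0.05 to 0.04.

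By level, which TPM makes comparable between genes, the mean of scaled TPM in shCTCF was highest for Sms at 29.4 ± 0.857 and Odc1 at 26.4 ± 2.92 (SD, n = 2), then Oat at 17.6 ± 0.00528 and Srm at 16.6 ± 0.446. These means were followed by Gatm at 5.29 ± 0.381, Nos1 at 5.26 ± 0.789, Asl at 4.90 ± 0.348 and Slc7a1 at 4.20 ± 0.0491, and by Ass1 at 1.82 ± 0.0387 and Arg2 at 0.888 ± 0.121. In shLAC, Sms at 24.1 ± 0.320 and Odc1 at 23.9 ± 2.77 did not differ beyond their spread, nor did Oat at 17.3 ± 2.05 and Srm at 16.4 ± 1.04. Gatm at 7.74 ± 0.393 stood above Nos1 at 5.61 ± 0.414 and Slc7a1 at 4.94 ± 0.328, and Ass1 at 2.35 ± 0.336, Asl at 1.78 ± 0.299 and Arg2 at 0.681 ± 0.266 followed. Asl thus stood between Nos1 and Slc7a1 in shCTCF, within the spread of Gatm and Nos1, and between Ass1 and Arg2 in shLAC.

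The genes whose 4 values ran closest to those of Asl were sought among 6863 fitted genes with a mean of at least 5 scaled TPM. The measure was the Euclidean distance between mean-centred log2(scaled TPM + 1) values over the 4 libraries. Asl itself, with means of 4.90 scaled TPM in shCTCF and 1.78 in shLAC, falls below that cut. Genes at its own level were therefore not compared. The nearest was Fuz, an effector of planar polarity and cilia, at a distance of 0.24, with 7.48 and 7.83 scaled TPM in shCTCF, against 3.13 and 3.42 scaled TPM in shLAC. Plcxd2 (distance 0.35), the heparan sulfate proteoglycan gene Gpc5 (0.38), the Ras GTPase-activating gene Rasal1 (0.42) and Dvl1, a Wnt signal transducer (0.45), came next, against a median distance of 1.11. These were chosen for a profile like that of Asl, so their fold changes, 1.02 for Fuz down to 0.65 for Dvl1, are a description over 4 libraries.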

How the data were processed

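RNA of 4 libraries was grouped by title into shCTCF and shLAC, 2 each. The deposited values are TPM per Ensembl gene, summing to 1000000 per library; the submitters' processing notes list RSEM 1.2.28, CASAVA and mm10. The sources used here give no aligner settings, annotation release or strand. GENCODE vM21 (GRCm38) named 37060 of 37437 genes. Coding genes of at least 300 nt of merged exons, without those named Gm and digits, were kept if 2 or more libraries reached 1 TPM (11139). They were scaled by median ratios and fitted as log2(scaled TPM + 1) by limma 3.58.1 (R 4.3.3) with a trend and Benjamini-Hochberg adjustment at 0.05. Because TPM is a share of a fixed total, abundant RNA in 1 library lowers its other genes, and depth is lost. Members, pathway lists and tests were chosen with earlier results of these data known. Named genes were the members, Ctcf, the neighbours of Asl, the 5 nearest profiles and, per list, up to 4 called genes by size or the 2 with the highest mean. 1 gene this rule names is counted in its list but not reported here. The fit was tested on simulated data, with 200 of 11139 genes changed by a fold of 1.5, 2 or 4. It recovered 100% of them at each fold, with 15, 5 and 12 false calls. The changed genes were not drawn from those of low level, and changes as small as that of Sms were not simulated. The simulated noise was normal and independent between libraries, with an SD set by level alone. Real genes of the same level can differ in spread, so these rates need not hold for the real libraries.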

Additional observations from a re-analysis of the deposited data

How the results depend on the processing

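Alternatives changed 1 choice at a time: no scaling, genes of every type that passed the filter (12816 fitted), a pseudocount of 0.25, no filter on low values of coding genes (19038 fitted), a mean of at least 5 scaled TPM, the replicate number as a block, and each library in turn omitted, with the spread of a lone library assumed equal to that of the other pair. Among coding genes, 315 rose and 410 fell. The counts were 106 and 50 as deposited, 47 and 87 with genes of every type, 86 and 159 with no filter, 183 and 228 at a mean of at least 5 scaled TPM, where fewer genes are tested, and 641 and 765 with the replicate block. With 1 library left out they ranged from 77 to 525 higher and from 144 to 623 lower, the lowest without shCTCF replicate 2 and the highest without shLAC replicate 1.

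Of the members other than Asl, 1 rose and 1 fell; 0 rose and 0 fell as deposited, with genes of every type and with no filter. With 1 library left out, from 0 to 1 rose and from 0 to 2 fell. Of the pathway genes, 1 rose and 4 fell; 0 rose and 0 fell with genes of every type, 0 rose and 1 fell with no filter, 0 rose and 2 fell at a mean of at least 5 scaled TPM, 1 rose and 0 fell as deposited, and 5 rose and 7 fell with the replicate block. With 1 library left out, from 0 to 3 rose, 0 without either shCTCF library and 3 without either shLAC library, and from 0 to 4 fell, 0 without shCTCF replicate 2 and 1 without shCTCF replicate 1. None of the 8 fitted neighbours of Asl was called under these alternatives, of which a mean of at least 5 scaled TPM left out Gusb and Kctd7.

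The sign turned as deposited in Crcp (0.16), Ddah1 (0.06), Gusb (0.02), Nos1 (0.09), Rabgef1 (0.05) and Tpst1 (0.09), none of them called. With 1 library left out it turned in some fits of Chchd2 (range -0.01 to 0.10), Ckb (-0.10 to 0.11, beside 0.00 with all libraries), Crcp (-0.13 to 0.09), Nos1 (-0.21 to 0.05), Oat (-0.08 to 0.15), Srm (-0.04 to 0.08) and Vkorc1l1 (-0.06 to 0.12). As deposited, the median log2 fold change of the 11139 fitted coding genes was 0.17. The cause of the turns was not tested.

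The replicate numbers are shared by the groups, but nothing says that a number marks a pair; deviations from the group means of libraries with the same number correlated at 0.25 over genes. Under the replicate block Sms and Gatm kept their calls, and Glul was called lower (limma adjusted p = 0.0199). Of 264 values of single tested genes under the alternatives, 211 kept direction and side of the threshold. Ckb, at 0.00 with all libraries, was counted as having no direction to lose. Most of these genes were not called with all libraries and count as kept if they stayed uncalled with the same sign. Ctcf kept its call throughout. The other called genes lost their call in 36 values: Sms in 5, Gatm and Slc7a5 in 4 each, Slc3a2 and Eif5a2 in 6 each, Got2 in 7 and Paox in 4. Depth is unknown, and 2 libraries per group limit precision throughout.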
